A study of Mus musculus with 6 samples.

Results

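The transcripts described here are those of 48 mouse genes of cell division and DNA replication, measured by RNA sequencing in the neocortex of embryos at embryonic day 18.5. They were chosen by symbol: 27 genes act in mitosis and 21 in replication, out of 23420 genes in the deposited count table. All 48 were found in the table, and all 48 passed the filter on low counts that left 14618 genes to be tested. The 2 groups were 3 libraries labelled as mutant for Tshz3, a gene for a zinc finger transcription factor, and 3 libraries labelled wild type. Each library came from its own pool of cortices of 3 to 4 embryos, taken from several litters. The labels number the libraries 1 to 3 in each genotype. They do not give the allele, its zygosity or the mouse strain. All libraries were made from 1 µg of total RNA with a stranded kit, and total counts ran from 18569383 to 24147810.

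Tshz3 itself was not lower in the libraries labelled mutant, at 89.8 to 99.2 against 78.7 to 89.3 CPM (counts scaled to library size), so its gene-level count did not check the labels, and those libraries are called mutant-labelled. Emx1, a transcription factor gene of the dorsal forebrain, was detected in every library, at 20.4 to 27.1 CPM. The blood list summed to 5.75 to 12.2 CPM. Of its 10 genes 8 were among the counted genes, and 4 had at least 1 read, with Hba-a1, Hba-a2, Hbb-b1 and Hbb-b2 listed at 0. The sum thus covers only part of the list. Choroid plexus and meningeal transcripts were present and differed widely between libraries, as described below beside the members' levels.

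Late in gestation, dividing cells of the neocortex are mainly the radial glia and intermediate progenitors beside the ventricle, together with glial precursors and cells of vessels, while most neurons have left the cell cycle. A cell preparing to divide first switches on replication genes at the G1/S boundary through the E2F transcription factors. It then switches on mitotic genes in G2 and M phase, through repressor and activator complexes (DREAM, B-MYB and FOXM1) that act at a short promoter element, the cell cycle genes homology region (CHR), often beside CCAAT boxes bound by NF-Y. In a whole tissue, fewer cells of a type and less RNA per cell cannot be told apart.

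The promoters of the 2 sets differ in these letters, and 5 are shown because they hold the elements by which the sets are usually told apart. The windows run from 250 bases before to 50 bases after the RefSeq transcription start on GRCm38.p6, and 40 of the 48 members had one (23 mitotic and 17 replication genes). Kif20a, Pole, Ccna2, Mcm4, Aurkb, Ccne2, Gins2 and Tpx2 are the members with none. Capitals mark the CHR letters TTTGAA and also TTTAAA on either strand, the box CCAAT, and the E2F letters TTTCGCGC, TTTGGCGC, TTTCCCGC and TTTGCCGC, so that the reverse complement of a motif is also in capitals. Mki67, minus strand, chr7:135716330-135716629, and Top2a, minus strand, chr11:99024140-99024439, are mitotic genes with CHR. Mcm3, minus strand, chr1:20820263-20820562, and Mcm5, plus strand, chr8:75109259-75109558, are replication genes with E2F letters, and Cdk1, minus strand, chr10:69352863-69353162, holds both kinds.
Mki67: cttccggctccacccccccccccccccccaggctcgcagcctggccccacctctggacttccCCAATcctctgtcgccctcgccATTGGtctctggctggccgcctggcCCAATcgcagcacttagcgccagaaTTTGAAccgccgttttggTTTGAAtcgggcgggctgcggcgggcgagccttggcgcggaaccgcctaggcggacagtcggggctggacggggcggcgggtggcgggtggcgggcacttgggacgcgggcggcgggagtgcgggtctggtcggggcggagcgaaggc
Top2a: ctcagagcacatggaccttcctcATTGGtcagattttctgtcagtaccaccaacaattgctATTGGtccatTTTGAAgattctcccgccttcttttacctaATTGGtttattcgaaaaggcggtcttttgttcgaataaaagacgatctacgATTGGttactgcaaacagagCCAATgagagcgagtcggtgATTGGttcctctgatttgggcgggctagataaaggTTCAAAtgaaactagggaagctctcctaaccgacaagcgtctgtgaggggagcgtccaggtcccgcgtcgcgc
Mcm3: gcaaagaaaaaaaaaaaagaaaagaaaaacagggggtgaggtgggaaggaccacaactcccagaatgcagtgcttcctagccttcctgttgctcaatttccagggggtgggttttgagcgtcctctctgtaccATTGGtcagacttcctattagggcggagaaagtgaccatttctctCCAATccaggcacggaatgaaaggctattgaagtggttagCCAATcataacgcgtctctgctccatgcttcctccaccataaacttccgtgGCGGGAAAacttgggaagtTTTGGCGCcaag
Mcm5: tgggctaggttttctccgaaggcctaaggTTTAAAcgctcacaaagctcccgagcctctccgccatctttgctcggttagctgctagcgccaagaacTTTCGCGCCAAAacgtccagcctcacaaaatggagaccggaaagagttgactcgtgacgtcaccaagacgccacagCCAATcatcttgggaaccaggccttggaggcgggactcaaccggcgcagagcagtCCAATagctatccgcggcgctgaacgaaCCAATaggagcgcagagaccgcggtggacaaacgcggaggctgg
Cdk1: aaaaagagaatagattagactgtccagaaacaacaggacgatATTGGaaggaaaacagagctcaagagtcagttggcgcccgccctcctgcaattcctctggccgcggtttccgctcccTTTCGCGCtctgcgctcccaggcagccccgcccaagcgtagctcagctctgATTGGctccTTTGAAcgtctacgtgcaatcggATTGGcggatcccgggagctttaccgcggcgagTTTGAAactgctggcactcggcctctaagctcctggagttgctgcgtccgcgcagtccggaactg

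Mki67 has a pair of forward TTTGAA elements that begin 116 and 98 bases before its start, downstream of its CCAAT boxes. Top2a has 1 TTTGAA that begins 179 bases before the start and 1 on the other strand 23 bases before it, among 6 CCAAT boxes. In Mcm5, TTTCGCGC and the reverse complement of TTTGGCGC overlap in 1 run, and the same window holds TTTAAA, which reads the same on both strands. CHR letters stood in 21 of the 23 mitotic genes (91.3%) and in 5 of the 17 replication genes (29.4%), beside 30.6% of 27025 genes with a promoter in the same table. Nusap1 and Bub1 were the mitotic genes whose windows lack them. E2F letters showed the opposite split, in 1 mitotic gene (Cdk1, 4.35%) and 8 replication genes (47.1%), beside 2.6% of all genes. CCAAT was common in both, in 87% and 64.7%, beside 41.1% of all genes. A gene with several starts was counted once. A match is a description of the letters and not a site of binding.

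Mitotic transcripts lay somewhat higher in mutant-labelled libraries, and replication transcripts did so less, but no member passed the test in either direction. The summed level of the 27 mitotic genes was 611, 532 and 451 CPM in mutant-labelled libraries 1, 2 and 3 and 541, 495 and 424 CPM in wild-type libraries 1, 2 and 3. The means were 531 ± 80.0 and 487 ± 58.96 CPM (SD, n = 3 each), and the groups overlapped. The log2 ratio of these means was 0.13, and it was 0.01 without mutant-labelled library 1, 0.03 without wild-type library 3, 0.21 without wild-type library 1 and 0.23 without mutant-labelled library 3. The summed level of the 21 replication genes was 694, 627 and 602 CPM in mutant-labelled libraries and 684, 630 and 591 CPM in wild type, with means of 641 ± 47.5 and 635 ± 46.8 CPM. The replication sums were thus nearly the same in libraries of the same number, whatever the genotype.

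The numbers matter because each sum was highest in library 1 and lowest in library 3 in both genotypes. Library 1 stood 1.35-fold above library 3 in mitotic sum among mutant-labelled libraries and 1.28-fold among wild type. For the replication sum these ratios were 1.15 and 1.16. The difference between pools of 1 genotype was therefore larger than the difference between genotypes at any number. Within numbers, the mutant-labelled mitotic sum was higher by 12.8%, 7.46% and 6.27%. The replication sum differed by 1.45%, −0.451% and 1.89%. The ratio of mitotic to replication sum was 0.880, 0.848 and 0.749 in mutant-labelled libraries and 0.792, 0.785 and 0.718 in wild type, so it was higher in the mutant-labelled library of every number, and the groups still overlapped.

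**Figure D1:**
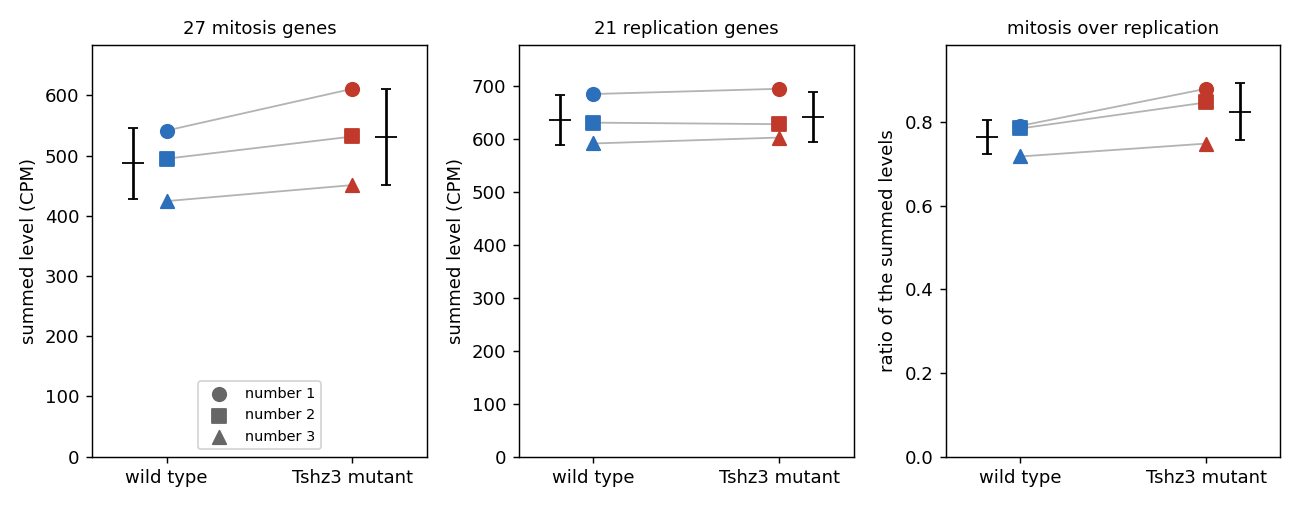
Summed level (CPM, axis from 0) of the 27 mitotic genes and of the 21 replication genes, and the ratio of the 2 sums, in each library. Points are single libraries, grey lines join libraries of the same number, and black bars give the mean and SD of 3 libraries; number 1 is highest and number 3 lowest in every panel, and the mutant-labelled mitotic sum lies above wild type at each number.

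Abundant members weigh most in these sums. Top2a and Mki67 make up 22.4% of the mitotic sum, and without them the within-number differences were 14.3%, 9.84% and 7.81%. Mcm7 and Pcna make up 30.6% of the replication sum, and without them the differences were 4.12%, 0.193% and 4.1%. Over single genes, the median log2 fold change, mutant-labelled over wild type, was 0.13 for mitotic genes (range −0.08 to 0.40) and 0.05 for replication genes (−0.17 to 0.59), beside −0.01 over all tested genes. The mitotic median rested in part on single libraries: it was 0.05 without mutant-labelled library 1, 0.05 without wild-type library 3, 0.23 without mutant-labelled library 3 and 0.24 without wild-type library 1. The replication median was −0.03 without mutant-labelled library 1 or without wild-type library 3, 0.13 without mutant-labelled library 3, 0.10 without wild-type library 1 and 0.03 without wild-type library 2. Leaving out a single library makes the numbers unequal between genotypes. A further fit took the number as a block and left the same number out of both genotypes. There the mitotic median was 0.10, 0.14 and 0.15 without numbers 1, 2 and 3, and the replication median 0.02, 0.05 and 0.03.

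Direction was shared by most mitotic genes. The fitted log2 fold change was above 0 for 22 of 27 mitotic and 13 of 21 replication genes, where 47.7% of all tested genes were above 0. Both counts rested in part on single libraries. Without mutant-labelled library 1 the mitotic count was 16 of 27 and the replication count 8 of 21. Without wild-type library 3 they were 17 of 27 and 8 of 21. With the number as a block and numbers 1, 2 and 3 left out of both genotypes in turn, the mitotic count was 21, 22 and 23 of 27. The replication count was then 13, 14 and 12 of 21. Within all 3 numbers, 17 of 27 mitotic genes were higher in the mutant-labelled library and 0 were lower, beside 19.3% and 19.8% of all genes. Among replication genes 5 of 21 were higher in all 3 numbers and 3, Mcm7, Rfc3 and Rfc4, were lower in all 3. Leaving out number 2 in both genotypes, 10 of 21 replication genes were higher within both other numbers, beside 32.7% of all genes.

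The test across all genes, edgeR's quasi-likelihood test, called 0 of the 48 members, where 0.0479% of genes were called higher and 0.0274% lower (0.0752% in either direction). In simulated data this test recovered 0% of genes changed 1.3-fold, so the 0 calls do not show that members were unchanged. The lowest adjusted p among members was 0.482, for Ccne2, and 3 members had an unadjusted p under 0.05 (Ccne2, Kif2c and Aurka), beside 7.09% of genes. DESeq2, which called 0.416% of its genes higher and 0.303% lower, called 0 members as well. With the library number as a block, 1.97% of genes were called higher and 1.49% lower (3.46% in either direction), and again 0 members were, with a lowest adjusted p of 0.059 for Ccne2. In the simulated data the blocked fit recovered 56% of genes changed 1.3-fold, with 25 false calls. The blocked fit gave 13 members an unadjusted p under 0.05, 10 of them mitotic and all 13 with a positive fold change, beside 17.9% of genes in either direction. When number 2 was left out of the blocked fit in both genotypes, 6 members were called higher: Hmmr, Kif2c, Ccne2, Mcm4, Kif20a and Ccnb1. That fit called 7.65% of all genes higher and 5.16% lower, with 0 members lower.

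**Figure D2:**
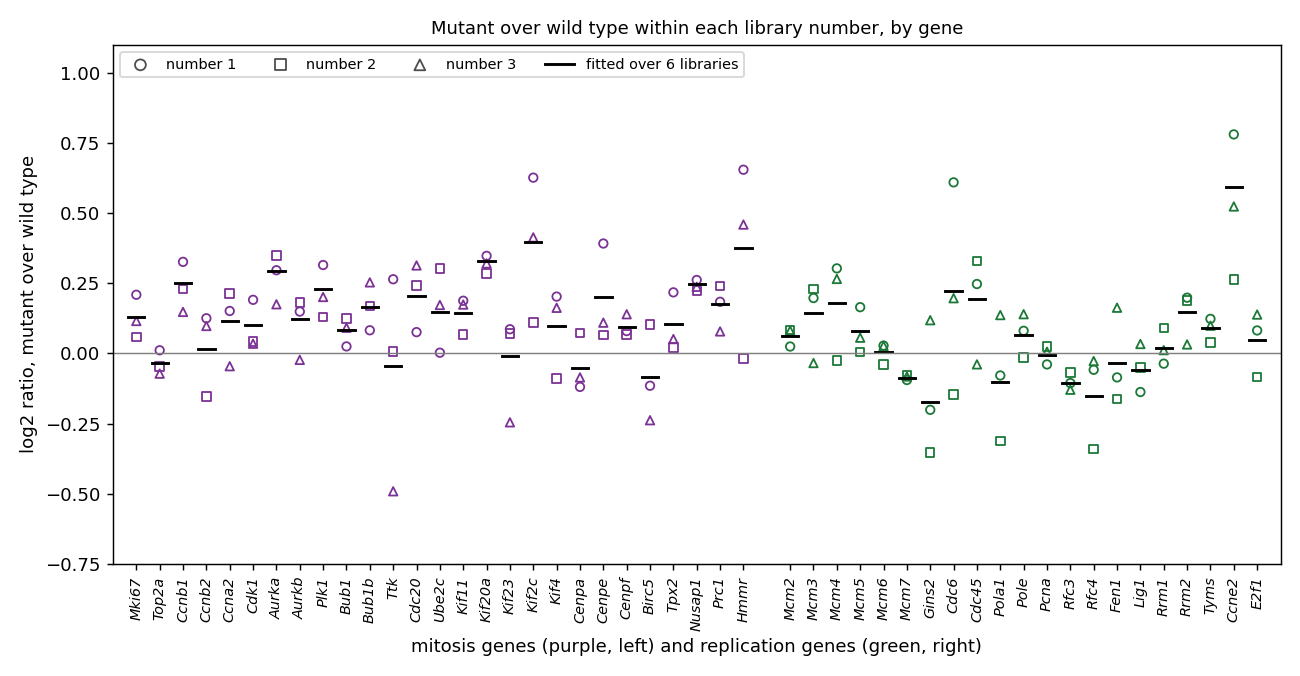
Log2 ratio of mutant-labelled over wild-type level within each library number for the 48 members, ordered by role (open points, 1 per number), with the fitted log2 fold change over the 6 libraries as a black bar. Most mitotic genes lie above 0, with 17 of 27 above it at all 3 numbers, while replication genes lie on both sides, and Ccne2 is highest at 0.59.

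Mki67 and Top2a are the usual marks of cycling cells. Mki67, which encodes the Ki-67 protein that coats mitotic chromosomes, lies on chromosome 7 from 135689784 to 135716450 (GRCm38, minus strand). Its level was 61.2, 56.9 and 48.1 CPM in mutant-labelled libraries 1 to 3 and 52.9, 54.6 and 44.4 CPM in wild type. It was higher in the mutant-labelled library of each number, and the groups overlapped. The log2 fold change was 0.13 (SE 0.11, 95% interval −0.13 to 0.39, adjusted p = 0.889). It was 0.05 without mutant-labelled library 1, 0.04 without wild-type library 3 and 0.22 without mutant-labelled library 3. Top2a encodes the topoisomerase that untangles sister chromatids and lies on chromosome 11 from 98992947 to 99024199. Its level was 66.1, 64.3 and 50.7 CPM in mutant-labelled libraries and 65.6, 66.5 and 53.3 CPM in wild type, with a log2 fold change of −0.03 (95% interval −0.33 to 0.26). On the log2 scale Top2a differed by 0.01, −0.05 and −0.07 within numbers 1, 2 and 3, nearly level at number 1 and slightly lower at the others.

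The mitotic cyclins and their kinase had positive fold changes throughout, none of which passed the test. Cyclins B1, B2 and A2 (Ccnb1, Ccnb2, Ccna2) activate Cdk1, whose activity drives entry into mitosis. Their log2 fold changes were 0.25 for Ccnb1, 0.02 for Ccnb2, 0.12 for Ccna2 and 0.10 for Cdk1. Cdk1 varied strongly among pools, at 26.9, 19.3 and 16.6 CPM in mutant-labelled libraries and 23.5, 18.7 and 16.2 CPM in wild type. The same order of pools appeared in both genotypes, and the difference within numbers was small beside it.

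Among the mitotic kinases, Aurka, which matures centrosomes and builds the spindle, had groups that did not overlap. It lies on chromosome 2 from 172356190 to 172370886 and measured 9.66, 9.55 and 8.36 CPM in mutant-labelled libraries against 7.78, 7.39 and 7.35 CPM in wild type. All 3 mutant-labelled libraries lay above all 3 wild-type libraries, as they did for 7.42% of tested genes. The log2 fold change was 0.29 (SE 0.12, 95% interval 0.02 to 0.57), which did not pass (adjusted p = 0.678, and 0.191 with the number as a block). Plk1, a kinase of mitotic entry, had a log2 fold change of 0.23 and was higher in the mutant-labelled library at each number. Aurkb, the kinase that corrects faulty chromosome attachments, had 0.12. Aurkb differed most by library number among the 48 members, with number 1 above number 3 by 0.65 on the log2 scale, while Aurka had the smallest such difference of the mitotic genes, 0.14.

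The kinesin Kif2c had the largest mitotic fold change. Kif2c depolymerises microtubules at centromeres and lies on chromosome 4 from 117159633 to 117182624. Its level was 13.8, 11.5 and 10.7 CPM in mutant-labelled libraries and 8.77, 10.6 and 7.89 CPM in wild type, so the groups did not overlap, though mutant-labelled library 3 and wild-type library 2 nearly met. The log2 fold change was 0.40 (SE 0.15, 95% interval 0.04 to 0.76, adjusted p = 0.650, blocked 0.0857). Kif20a, a kinesin of the central spindle needed for cytokinesis, measured 18.1, 16.3 and 13.4 CPM in mutant-labelled libraries and 14.1, 13.3 and 10.7 CPM in wild type. Its differences within numbers were the most even of the 4 mitotic genes with the largest change, at 0.35, 0.28 and 0.32 on the log2 scale, with a log2 fold change of 0.33 (SE 0.15, adjusted p = 0.727, blocked 0.0673, and 0.22 without wild-type library 3). Kif20a shares 1271 exonic bases with Cdc23 on the opposite strand, so its count is uncertain where strand was not used. Kif11, the motor that pushes spindle poles apart, had a log2 fold change of 0.14, Kif4 had 0.10, and Kif23, a partner in the central spindle, had −0.01.

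All 4 genes of spindle assembly had positive fold changes, none past the test. Hmmr, a spindle pole protein, lies on chromosome 11 from 40701388 to 40733464 and measured 12.3, 9.67 and 9.17 CPM in mutant-labelled libraries and 7.63, 9.81 and 6.53 CPM in wild type. Wild-type library 2 lay inside the mutant-labelled range, and the log2 fold change was 0.38 (SE 0.19, 95% interval −0.05 to 0.81, adjusted p = 0.755), or 0.24 without mutant-labelled library 1 and 0.25 without wild-type library 3. Nusap1, which bundles spindle microtubules and whose promoter window has no CHR letters, had 0.25 and was higher at each number. Prc1, which crosslinks the central spindle, had 0.17, and Tpx2, which activates Aurka at the spindle, had 0.11. The role's summed level was 107, 89.2 and 77.1 CPM in mutant-labelled libraries and 88.8, 81.3 and 69.7 CPM in wild type.

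Checkpoint and centromere genes lay closer to 0. The spindle checkpoint holds cells in metaphase until chromosomes are attached, and its members had log2 fold changes of 0.16 (Bub1b), 0.08 (Bub1) and −0.04 (Ttk). Cdc20 and Ube2c, which switch on and charge the anaphase-promoting complex, had 0.21 and 0.15. The centromere genes were split, with 0.20 for the kinetochore motor Cenpe and 0.09 for Cenpf, but −0.05 for the centromeric histone Cenpa and −0.08 for Birc5, the survivin subunit of the Aurora B complex. Their summed level, 64.3, 58.3 and 47.5 CPM in mutant-labelled and 62.0, 55.2 and 47.3 CPM in wild-type libraries, followed the library number and hardly the genotype.

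**Figure D3:**
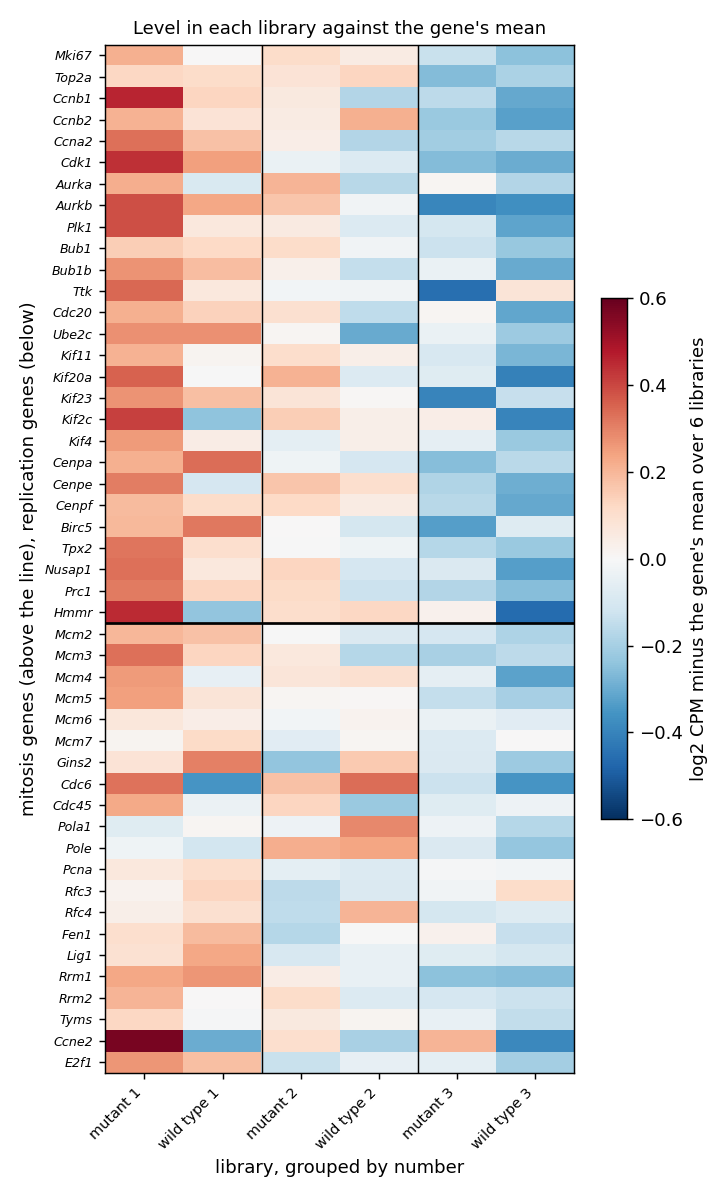
Level of each of the 48 members in each of the 6 libraries, as log2 CPM minus the gene's own mean, with genes in rows by role and libraries in columns, those of the same number side by side. The number 1 libraries are high and the number 3 libraries low in both genotypes across most mitotic genes, and more weakly across replication genes.

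On the replication side, the 9 genes that load and run the helicase had a median log2 fold change of 0.08, with 7 positive and 2 negative. The Mcm2 to Mcm7 proteins form the ring that unwinds DNA. Mcm2, on chromosome 6 from 88883474 to 88898780, measured 33.0, 28.7 and 26.7 CPM in mutant-labelled libraries and 32.4, 27.0 and 25.3 CPM in wild type. Its log2 fold change was 0.06 (SE 0.12, 95% interval −0.21 to 0.33), with libraries of the same number nearly level. Mcm4, on chromosome 16 from 15623897 to 15637400, measured 38.6, 34.0 and 31.2 CPM in mutant-labelled libraries and 31.2, 34.6 and 25.9 CPM in wild type. It was higher at numbers 1 and 3 and level at number 2, with a log2 fold change of 0.18 (SE 0.12, adjusted p = 0.842). Without wild-type library 3 it was 0.07, without mutant-labelled library 1 0.09 and without wild-type library 2 0.28. Mcm3 had 0.14, Mcm5 0.08 and Mcm6 0.00.

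Mcm7, the most abundant helicase subunit here, went the other way by a small and even step. It lies on chromosome 5 from 138164583 to 138172111 and measured 98.8, 93.2 and 92.4 CPM in mutant-labelled libraries and 106, 98.5 and 97.8 CPM in wild type. The log2 differences within numbers were −0.09, −0.08 and −0.08, and the groups overlapped because mutant-labelled library 1 lay just above the lower wild-type libraries. The fitted log2 fold change was −0.09 (SE 0.06, 95% interval −0.22 to 0.05, adjusted p = 0.829), or −0.05 without wild-type library 1. The Mcm7 gene hosts the microRNA genes Mir25 and Mir93 and overlaps Ap4m1 on the opposite strand by 321 exonic bases.

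Loading factors were expressed at low levels. Cdc6, which recruits the helicase to origins, measured 5.33, 4.80 and 3.88 CPM in mutant-labelled libraries and 3.32, 5.36 and 3.32 CPM in wild type. Its log2 fold change of 0.22 had a wide 95% interval of −0.33 to 0.77, and it ran from 0.10 without wild-type library 1 to 0.49 without wild-type library 2. Cdc45, which joins the helicase when it fires, measured 9.10, 8.51 and 7.40 CPM in mutant-labelled libraries and 7.59, 6.67 and 7.62 CPM in wild type (log2 fold change 0.19, 95% interval −0.12 to 0.50, or 0.13 without mutant-labelled library 1). Gins2, a further helicase subunit, had −0.17, and its count is uncertain because 2758 of its 4097 exonic bases are shared with Gse1 on the opposite strand. At these levels the intervals allow differences in either direction.

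Genes of the polymerases, the sliding clamp and ligation formed the one role with mostly negative fold changes, 6 of 7, with a median of −0.06. Pcna encodes the clamp that holds polymerases on DNA and lies on chromosome 2 from 132249286 to 132253180. It measured 102, 93.5 and 96.8 CPM in mutant-labelled libraries and 105, 91.9 and 96.4 CPM in wild type. Its log2 fold change of 0.00 had an SE of 0.07 and a 95% interval of −0.16 to 0.15, so levels at each number nearly coincided. The clamp loader genes Rfc3 and Rfc4 had −0.10 and −0.15 and were lower in the mutant-labelled library of each number. Pola1, a polymerase alpha subunit, had −0.10, Lig1, the ligase that seals Okazaki fragments, −0.06, Fen1, the flap nuclease, −0.03, and Pole 0.06. The Fen1 count is uncertain because 1909 of its 2422 exonic bases are shared with Gm10143 on the opposite strand. The summed level of the role was 237, 218 and 224 CPM in mutant-labelled libraries and 249, 228 and 221 CPM in wild type.

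The genes for nucleotide supply were level or slightly higher. Ribonucleotide reductase makes deoxyribonucleotides, and its subunit genes Rrm1 and Rrm2 had log2 fold changes of 0.02 and 0.15. Tyms, the thymidylate synthase, had 0.09. Rrm1 differed more by library number than any other replication gene, with number 1 above number 3 by 0.49 on the log2 scale, at 68.9, 60.7 and 49.6 CPM in mutant-labelled libraries and 70.7, 56.9 and 49.2 CPM in wild type.

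Ccne2, the cyclin E2 that drives entry into S phase with CDK2, had the largest fold change of all 48 members. It lies on chromosome 4 from 11190433 to 11204779 and measured 6.22, 4.50 and 4.83 CPM in mutant-labelled libraries and 3.41, 3.67 and 3.21 CPM in wild type. The groups did not overlap. The fold was 1.51, the log2 fold change 0.59 (SE 0.18, 95% interval 0.18 to 1.01), and the adjusted p was 0.482, or 0.059 with the block, so it did not pass. It was the least counted member, with as few as 59 reads in a library, and 609 of its exonic bases are shared with Ints8 on the opposite strand. E2f1, the transcription factor of G1/S genes, had a log2 fold change of 0.05. Aurka, Kif2c and Ccne2 were the only members, 3 of 48, whose groups did not overlap. All had the mutant-labelled side above, beside 7.42% of all genes, so the count was no higher than that share. None lay below, beside 6.09% of all genes.

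Across members, levels differed more by library number than by genotype. The contrast of number 1 with number 3 was chosen after the sums had been seen, and its values are a description. The mean of the number 1 libraries was above that of the number 3 libraries for 48 of 48 members, beside 48.8% of all tested genes. The median log2 difference was 0.39 for mitotic genes (0.14 to 0.65) and 0.22 for replication genes (0.03 for Rfc3 to 0.49), beside −0.00 for all genes. Library 1 was the highest of its genotype in both genotypes for 32 of 48 members (19 mitotic and 13 replication genes), beside 19.6% of all genes.

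Other transcripts also stood high in the number 1 libraries. Choroid plexus genes (Ttr, Folr1, Kl and Aqp1, all detected) summed to 810 and 827 CPM in mutant-labelled and wild-type library 1, against 123 to 227 CPM in the other 4 libraries. Meningeal genes (6 of 6 detected) summed to 228 and 284 CPM in library 1 of the 2 genotypes, 184 CPM in wild-type library 2 and 41.8 to 80.3 CPM in the other 3. Endothelial genes (6 of 6 detected) ran from 116 to 149 CPM in mutant-labelled libraries and from 119 to 156 CPM in wild type, with library 1 highest in both. Their part in the differences among pools was not tested. Between genotypes within numbers, the choroid plexus sum differed by −1.98%, 53.3% and −34.2%, the meningeal sum by −19.6%, −56.4% and 27.4% and the endothelial sum by −4.11%, −5.19% and −2.47%.

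Progenitor markers gave a further reference. Radial glia genes (14 of 14 detected) summed to 2245 to 2380 CPM in mutant-labelled libraries and 2161 to 2280 CPM in wild type, higher by 3.65%, 4.39% and 3.89% within numbers. Gene by gene, 5 of the 14 had a positive fitted fold change and 9 a negative one, with a median log2 fold change of −0.01. Library 1 stood 1.02-fold and 1.03-fold above library 3 in mutant-labelled and wild-type libraries for this list, against 1.22-fold and 1.15-fold for intermediate progenitor, 1.27-fold and 1.38-fold for astrocyte and 1.32-fold and 1.20-fold for microglial genes. Intermediate progenitor genes (7 of 7 detected) summed to 161 to 197 and 162 to 193 CPM and differed by 2.19%, 8.02% and −3.6% within numbers. Astrocyte genes (5 of 5 detected) spanned 268 to 345 and 249 to 343 CPM and differed by 0.723%, 3.92% and 8.97% within numbers. Of these genes, 2 had a positive fitted fold change and 3 a negative one. Microglial genes (6 of 6 detected) spanned 47.1 to 62.2 and 49.8 to 63.2 CPM. Neuronal genes (11 of 11 detected) spanned 7996 to 8724 and 7985 to 8690 CPM. The dorsal forebrain genes Emx1, Emx2 and Lhx2 summed to 193, 179 and 183 CPM in mutant-labelled libraries and 202, 184 and 192 CPM in wild type, lower within each number, with overlap between groups. Among them Emx1 did not overlap, at 20.4 to 22.3 against 25.3 to 27.1 CPM, as was so in this direction for 6.09% of all genes. It passed in neither fit (adjusted p = 0.433, blocked 0.0693), with a log2 fold change of −0.28 and an SE of 0.07. The part of any of these cell types in the mitotic difference was not tested.

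**Figure D4:**
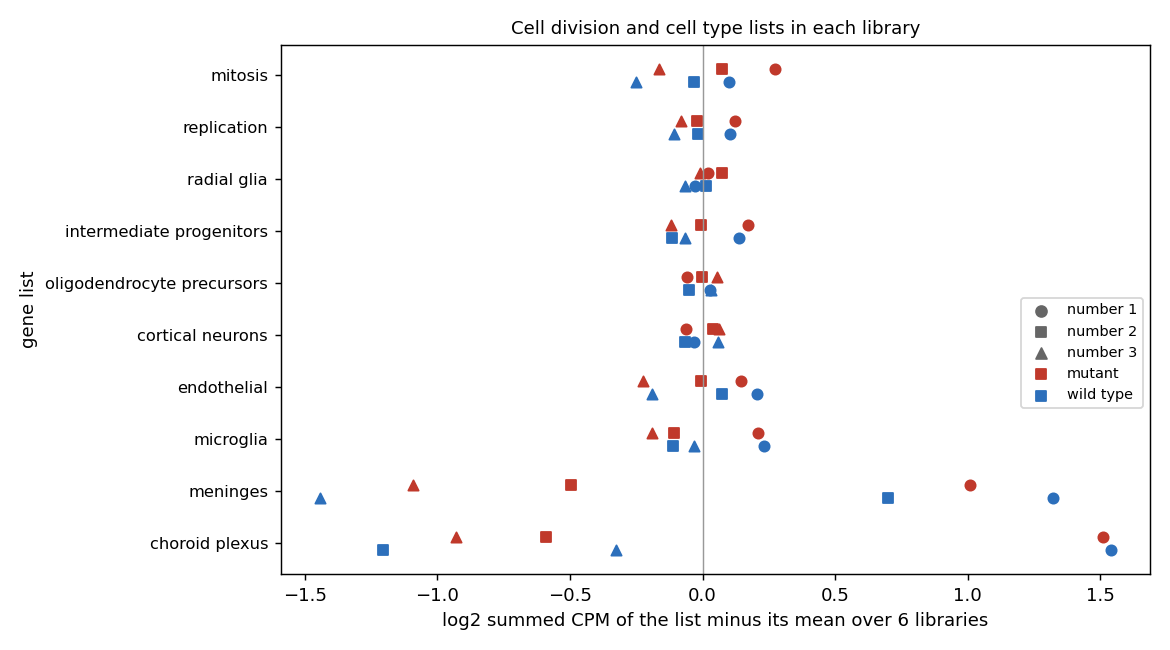
Summed level of the mitotic and replication genes and of marker lists for other cell types, as log2 CPM of the sum minus the list's mean over the 6 libraries, with 1 point per library (shape for the number, colour for the genotype). Choroid plexus and meningeal lists spread most, with library 1 high in both genotypes, while radial glia and neuronal lists stay close to 0.

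Further genes of the same processes lay close to the members of the same process. Of 58 other mitosis genes 57 were tested (Ccnb3 had no read). In edgeR 0 passed without the block, beside 0.0752% of all genes, and 0 with it, beside 3.46%. At an unadjusted p under 0.05 there were 0 without the block, beside 7.09% of all genes, and 12 with it, beside 17.9%. DESeq2 called 0. Their median log2 fold change was 0.12, with 45 of 57 positive, beside 47.7% of all genes. In all 3 numbers 23 were higher and 4 lower, beside 19.3% and 19.8% of all genes. Sgol2, a protector of centromeric cohesion, measured 8.91, 8.51 and 6.65 CPM in mutant-labelled libraries and 6.45, 7.63 and 4.74 CPM in wild type (log2 fold change 0.35, SE 0.20, or 0.19 without wild-type library 3). Plk4, the kinase of centriole duplication, measured 14.2, 12.8 and 10.5 against 10.1, 11.4 and 8.60 CPM (0.32, SE 0.15). Both were higher at each number, and their groups overlapped. Pttg1, the securin, measured 10.5, 12.9 and 11.1 against 13.6, 12.8 and 12.4 CPM (−0.16, SE 0.11, and −0.10 without mutant-labelled library 1 to −0.26 without mutant-labelled library 2). The kinesin Kifc1 measured 6.93, 6.21 and 4.53 against 7.06, 6.96 and 5.55 CPM (−0.15, SE 0.19, and 0.01 without mutant-labelled library 3). The groups overlapped for both. With number 2 left out of the blocked fit, 9 of the 57 were called higher, beside the 7.65% of all genes.

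Of 50 other replication genes, all tested, 0 passed without the block and 1 with it (1 lower, where 1.49% of all genes were called lower). That gene was Cdt1, the helicase loader that is degraded once S phase begins. It measured 8.06, 6.55 and 8.16 CPM in mutant-labelled libraries and 11.3, 9.56 and 10.3 CPM in wild type, and the groups did not overlap. Cdt1 fell by 0.46 on the log2 scale in the blocked fit (SE 0.11, adjusted p = 0.0382), while the adjusted p was 0.477 without the block. With the block and 1 number left out, the adjusted p was 0.156 without number 1, 0.0192 without number 2 and 0.247 without number 3. In simulated data the blocked fit made 25 false calls. Gins3, a helicase subunit, measured 6.27, 6.34 and 5.34 CPM in mutant-labelled libraries and 4.08, 4.06 and 4.35 CPM in wild type (log2 fold change 0.52, SE 0.15, adjusted p = 0.445, blocked 0.0591), and it passed in neither fit. Clspn, the claspin adaptor of the replication checkpoint, measured 8.01, 8.38 and 7.30 CPM in mutant-labelled libraries and 6.50, 6.96 and 6.37 CPM in wild type (log2 fold change 0.26, SE 0.12). Prim1, the primase subunit, measured 25.0, 23.4 and 22.9 against 29.7, 25.2 and 26.5 CPM (−0.19, SE 0.09, or −0.12 without wild-type library 1). The groups of both genes did not overlap, and neither passed. In this list, 3 of 50 genes had every mutant-labelled library above every wild-type library, beside 7.42% of all genes. The reverse held for 2, beside 6.09%. The median of the list was 0.03, with 30 of 50 positive, beside 47.7% of all genes. In all 3 numbers 11 were higher and 7 lower, beside 19.3% and 19.8% of all genes.

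Levels of different genes were compared per kilobase of exon, taking the union of annotated exons, which ignores which isoforms were used. Pcna was the highest of the 48, at 38.3 to 43.6 CPM per kilobase over the 6 libraries, followed by Mcm7 at 20.9 to 23.8, Rrm2 at 12.7 to 15.99 and Mcm6. Only these first 3 steps separated neighbours whose ranges did not overlap. From Mcm6 down to Cdc6, the lowest at 0.635 to 1.03 CPM per kilobase, each gene overlapped the next, in 44 of 47 neighbour pairs overall. The median level was 3.50 CPM per kilobase for mitotic and 6.27 for replication genes. Counts of 16 members could take in reads of a gene on the opposite strand, and 5 members have a pseudogene copy named in the annotation (Pcna, Ccnb1, Ccnb2, Kif4 and Tyms), so their levels are less certain. Those with opposite-strand overlap include Prc1, with 911 shared exonic bases, and Kif4, with 832.

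**Figure D5:**
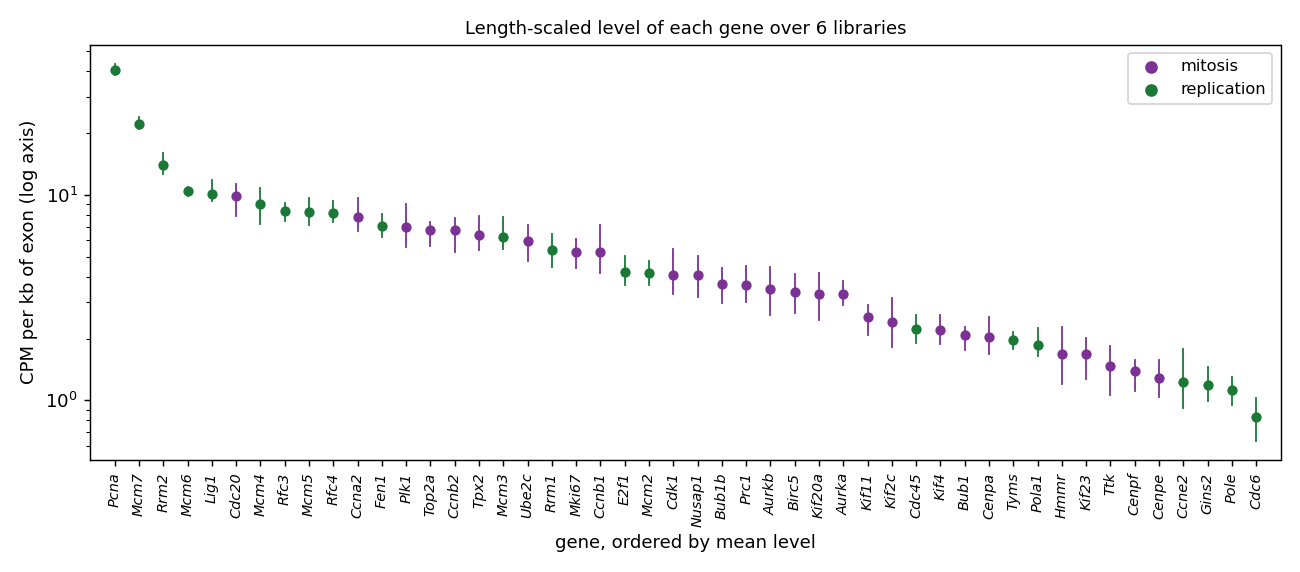
Level of each member per kilobase of exon (log axis, CPM per kilobase), ordered by the mean over the 6 libraries (points), with lines from the lowest to the highest library. Pcna, Mcm7 and Rrm2 stand apart at the top, and the ranges of neighbouring genes overlap from Mcm6 down.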

How the data were processed

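The data were raw read counts per gene symbol from 6 libraries, whole numbers deposited by the authors with no normalization. Build mm10 and the tools HTSeq 0.5.3p9, TopHat2 2.0.9, CASAVA 1.8.2 and Bowtie2 2.1.0 are named per the submitters' processing notes. The sources used here do not give what each tool did, the annotation, or whether the counting used strand. All rows named a gene, and 0 sample columns were left unused. Same-genotype libraries differed beyond sampling noise.

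The test was that of edgeR 4.0.16 under R 4.3.3 (quasi-likelihood, robust, TMM scaling, default expression filter, two-sided), adjusted by Benjamini-Hochberg over 14618 genes with a threshold of 0.05. The 95% intervals are unadjusted. CPM uses TMM-scaled totals. Ratios within numbers added 0.5 CPM. The p-values without the block measure the spread between pools of animals. Those with the block measure the spread left once the library number is fitted. SEs and 95% intervals are from the fit without the block unless the blocked fit is named. The median SE was 0.15 without the block and 0.09 with it for mitotic genes, and 0.12 and 0.08 for replication genes. Alternatives were a block by library number, DESeq2 1.42.0, DESeq2 size factors, total-count scaling, no filter, leaving out libraries, other promoter windows and fewer E2F forms. The code was tested on simulated data. Without the block the test recovered 0% of genes changed 1.3-fold and 82% of those changed 2-fold, with 1 false call. With the block it recovered 56% and 89%, with 25 false calls.

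Same-numbered libraries' deviations from their group means correlated across genes at 0.614, 0.514 and 0.467, over the bound of 0.1, so the numbers were taken to pair them. This comes from the data, since the labels do not say what a number shares.

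The members and lists were chosen with earlier results of these data known, so no list was tested as a whole. Values in every library were given for Mki67, Top2a, Pcna, Mcm2, members called in either fit, and, for mitosis and for replication, the 4 with the largest fold change and the 2 most abundant; from the other lists, called genes and the 2 largest per direction at a mean log2 CPM of at least 1. Cdk1 and Rrm1 were added after their values were seen. Promoters printed were the first 2 members of each set with its motif and the first with both. Neurog2 and Eomes were also added after their values were seen. Some marker genes are not reported here. Exon lengths and overlaps came from GENCODE M21 (GRCm38), promoters from RefSeq (GRCm38.p6).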

Additional observations from a re-analysis of the deposited data

How the results depend on the processing

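No member was called in edgeR under the other scalings, without the filter, with DESeq2 or with any 1 library left out. Over the leave-out fits, members called higher ranged from 0 to 6, other mitosis genes from 0 to 9 and other replication genes from 0 to 2, in each case reached with the block and without number 2. Of other replication genes called lower, the replicate block gave 1 (Cdt1) and the leave-out fits 0 to 1. Over all genes, calls numbered 7 higher and 4 lower, and 11 and 9 with no filter, 59 and 43 with DESeq2, and 288 and 218 with the replicate block. Without any 1 library there were 1 to 21 higher and 2 to 14 lower, the upper values without wild-type library 2. With the block, they were 141 and 154 without number 1, 1119 and 755 without number 2, and 35 and 27 without number 3. Among the named cell division and replication genes, the block changed no other call. Mitotic genes with a fold change above 0 numbered 16 to 27 when 1 library was left out. With the block and 1 number left out of both genotypes they numbered 21 to 23. Replication genes with a fold change above 0 numbered 8 to 16 when 1 library was left out, and 12 to 14 with the block and 1 number left out. Replication genes higher within every remaining number were 7 to 10. The log2 fold changes near 0 changed sign: Top2a spanned −0.13 to 0.081, Pcna −0.046 to 0.046, Mcm2 −0.027 to 0.17 and Kifc1 −0.28 to 0.012 without any 1 library. Pcna was 0.016 with the block without number 1, 0.0063 with total-count scaling and 0.0034 with no filter. The cause of these changes was not tested. With a window of 100 bases before the start, CHR stood in 14.7%, CCAAT in 26.3% and E2F letters in 1.45% of all genes and in 0% of mitotic genes, as the shorter window holds fewer matches. With TTTGGCGC and TTTCGCGC alone, E2F letters stood in 0.929% of all genes. Depth limits Ccne2, Cdc6 and Gins2 most, which have the fewest reads.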

Other observations

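Neurog2, a proneural factor of cortical intermediate progenitors, measured 22.9, 21.1 and 18.4 CPM in mutant-labelled libraries and 13.8, 17.9 and 13.8 CPM in wild type (log2 fold change 0.45, SE 0.13, adjusted p = 0.471, blocked 0.0223). It passed only in the blocked fit, which made 25 false calls in simulated data. Eomes, which marks the same progenitors, had 0.20 (SE 0.11) and did not pass in either fit (adjusted p = 0.805, blocked 0.125). Of the 7 genes on the list of intermediate progenitor markers 6 were tested, and these were the 2 with a positive fold change. The other 4 (Insm1, Btg2, Gadd45g and Mfap4) were negative, from −0.06 to −0.14, and the median of the 6 was −0.08.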
